A study of Mus musculus with 5 samples.

Results

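The cells described here are bone marrow cells of the megakaryocyte/erythroid progenitor (MEP) gate with many transcripts of Sphk1, the gene of sphingosine kinase 1. A MEP cell was taken where 500 or more genes were detected, at most 10% of its unique molecular identifiers (UMIs, the counted transcript molecules) came from mitochondrial genes, 5 or more were of Sphk1 and fewer than 5 were of Pf4, the platelet factor 4 gene that marks megakaryocyte progenitors. The members were thus chosen by their measured Sphk1 and Pf4 UMIs, which are described below but not tested. This rule took 1198 of the 6284 MEP cells that passed the filters, 19.1% (exact binomial 95% interval 18.1 to 20.1), out of 28894 such cells in all gates. They are called Sphk1-high cells below.

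The study profiled sorted bone marrow progenitors of healthy wild type C57BL/6 mice by single-cell RNA sequencing of 3′ ends on the 10x Genomics platform, with 1 library for each of 4 gates. MEP cells were lineage-negative, KIT-positive and negative for SCA1, CD34 and CD16/32. The other gates were the stem cell-rich lineage-negative SCA1+ KIT+ (LSK) gate, the common myeloid progenitors (CMP, CD34-positive) and the granulocyte/monocyte progenitors (GMP, positive for CD34 and CD16/32). The number, sex and age of the mice behind a library are not given in the labels. With 1 MEP library, no difference below has a replicate check and no test was made: intervals come from UMI counts or cell counts at 95% and cover counting error only.

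Sphingosine kinase 1 phosphorylates sphingosine to sphingosine-1-phosphate, a lipid signal that red cells make, store and release into plasma. Metallothionein 2, encoded by Mt2, binds zinc and copper, and Rhag encodes the Rh-associated glycoprotein, a membrane protein needed to bring the Rh proteins to the red cell surface. As erythroid progenitors mature they pass from slow, KIT-rich early cells through rapid divisions under erythropoietin, then build heme, globin and the red cell membrane skeleton.

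The erythroid identity of the cells was checked against marker genes. Klf1, a transcription factor gene of red cell development, had a UMI in 99.8% of Sphk1-high cells, and Epor, the gene of the erythropoietin receptor, in 85%. In MEP cells with 5 or more Pf4 UMIs, which are of another lineage and shallower (median 5565 UMIs against 18742), these shares were 35.9% and 27.6%. With 5000 UMIs drawn from each cell they were 89.6% and 30.3% for Klf1, and 40.8% and 19.1% for Epor. At that depth cells with 1 to 4 Sphk1 UMIs had 86.3% for Klf1 and 35.4% for Epor. Cells without Sphk1 had 82.7% and 28.5%, so these markers were not particular to the group. The genes of the last steps were almost absent. Alas2, the erythroid enzyme of the first step of heme synthesis, had 38 UMIs in 34 of the 1198 cells, and Slc4a1, encoding the anion exchanger of the red cell membrane, had 8 UMIs in 2 cells. The cells thus carry erythroid markers, with no broad expression of the late genes Alas2 and Slc4a1. Kit, a gene of the sort, had a UMI in 49.7% of the cells, while Cd34 had none and Ly6a, the SCA1 gene, had 1. Of other lineages, Mpo, Elane and C1qa had 1 UMI each and Cd3e and Adgre1 none, while the megakaryocyte genes Gp9 and Itga2b had 87 and 22 UMIs and the mast cell gene Ms4a2 had 10.

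Sphk1 formed a continuous scale in the MEP library, with no gap at the threshold. Of the cells with fewer than 5 Pf4 UMIs, 1675 had no Sphk1 UMI, 3266 had 1 to 4 and 1198 had 5 or more, and the remaining 145 MEP cells had 5 or more Pf4 UMIs. Just outside the threshold were 512 cells with 4 Sphk1 UMIs, and just inside it 391 cells with 5. These neighbours had medians of 16089 and 17315 UMIs per cell. Among the Sphk1-high cells the median was 6 Sphk1 UMIs, the highest 22, and 152 cells had 10 or more. The group held 53.6% of the Sphk1 UMIs of the MEP library. Both values chose the members: 4 MEP cells had 5 or more UMIs of Sphk1 and of Pf4, and 1122 of the Sphk1-high cells had no Pf4 UMI.

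A fixed number of Sphk1 UMIs is reached more often in a cell with more UMIs, and the Sphk1-high cells were the deepest of the library. Their UMIs per cell ranged from 5800 to 41952 with a median of 18742, against 13290 in cells with 1 to 4 Sphk1 UMIs and 6662 in cells with none. MEP cells were also put into 4 bins of equal cell number by UMIs per cell. In the bin with the fewest UMIs, 4 cells or 0.255% were Sphk1-high, and the share was 4.65%, 21.3% and 50.03% in the next bins. Sphk1 itself took a larger share of the UMIs in deeper cells. Among cells with fewer than 5 Pf4 UMIs it had 90.9 CPM (UMIs of the gene per 1000000 UMIs; 84.3 to 97.9) in the first bin, then 149, 198 and 240 (234 to 245). The group thus joins a high share of Sphk1 and a high UMI total, and its contrasts with other cells are given at equal depth and also among cells of like UMI totals. What sets the UMI total of a cell was not tested.

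**Figure D1:**
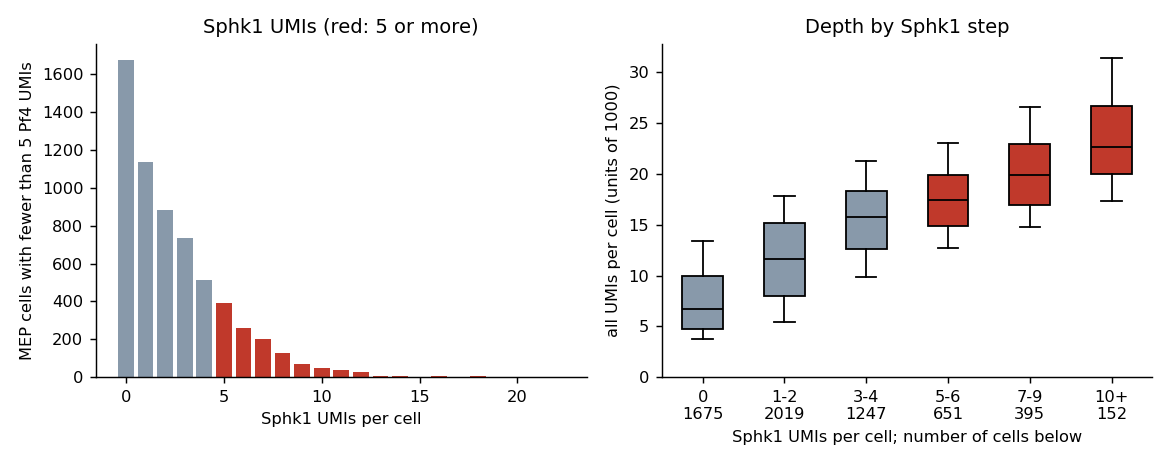
Left, number of MEP cells with fewer than 5 Pf4 UMIs (vertical axis) at each number of Sphk1 UMIs (horizontal axis), with the 1198 Sphk1-high cells in red. Right, UMIs per cell (units of 1000) for 6 steps of Sphk1 UMIs, with the median as a line, the quartiles as a box and the 10th and 90th percentiles as whiskers. The counts fall smoothly through the threshold, and the median depth rises from 6662 UMIs in cells without Sphk1 to 22608 in those with 10 or more.

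The promoters of the 3 marker genes are shown because Mt2 and Rhag are described beside Sphk1 as markers of these cells; whether their transcripts vary together from cell to cell was not tested. Sphk1 (ENSMUSG00000061878) lies on chromosome 11 at 116530925-116536674, Mt2 on chromosome 8 at 94172664-94173568 and Rhag on chromosome 17 at 40811126-40840754, all protein-coding and on the + strand (GENCODE M21, GRCm38). The sequences are the 250 bases before a RefSeq start (GRCm38.p6, + strand, 5′ to 3′): chr11:116532194-116532443 for Sphk1, chr8:94172368-94172617 for Mt2 and chr17:40810899-40811148 for Rhag. RefSeq lists 5 starts for Sphk1, and the windows of the 3 starts upstream of the one shown held none of the motifs. The remaining window, chr11:116532201-116532450, overlaps the one shown and held the same matches. The matches given for Sphk1 thus depend on the start shown, and which start MEP cells use was not tested. Capitals mark matches, on either strand, to a GATA factor motif (AGATAA, with either A or T as its first letter and either A or G as its last) or to a metal response element (TGCACNC or TGCGCNC).
Sphk1: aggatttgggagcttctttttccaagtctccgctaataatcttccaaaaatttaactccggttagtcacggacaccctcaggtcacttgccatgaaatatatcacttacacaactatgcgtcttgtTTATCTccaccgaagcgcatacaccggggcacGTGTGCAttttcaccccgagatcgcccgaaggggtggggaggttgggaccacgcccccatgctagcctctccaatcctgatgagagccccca
Mt2: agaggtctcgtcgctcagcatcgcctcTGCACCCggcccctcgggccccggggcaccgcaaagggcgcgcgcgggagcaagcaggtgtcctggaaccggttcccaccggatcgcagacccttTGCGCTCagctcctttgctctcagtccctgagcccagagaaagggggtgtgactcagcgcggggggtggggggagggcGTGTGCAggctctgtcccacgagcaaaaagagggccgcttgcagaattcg
Rhag: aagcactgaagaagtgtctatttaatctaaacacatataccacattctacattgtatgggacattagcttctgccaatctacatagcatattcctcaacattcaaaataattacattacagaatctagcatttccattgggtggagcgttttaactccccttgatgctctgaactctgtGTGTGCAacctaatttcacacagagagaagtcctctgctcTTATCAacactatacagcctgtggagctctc

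The Sphk1 stretch held a GATA match 124 bases and a metal response element match 92 bases before the start. The Mt2 stretch held 3 metal response element matches, at 223, 128 and 50 bases, and no GATA match. The Rhag stretch held a GATA match at 31 and a metal response element match at 71 bases. No match overlapped another. Over all 32851 RefSeq windows of 300 bases (250 before and 50 after a start), 29.8% held a GATA match, 25.7% a metal response element match and 5.31% a CACCC box (CCACACCC or CCGCACCC), which none of the 3 stretches held. Of the 34 genes that were higher in the Sphk1-high cells by the rule below, 30 had windows, of which 11 held a GATA match, 11 a metal response element and 2 a CACCC box. The share of genes with a GATA match was 36.7% there, 28.9% of 38 genes that were lower, and 33.0% over all 27025 genes with a window. For the metal response element these shares were 36.7%, 39.5% and 28.2%, and for the CACCC box 6.67%, 13.2% and 6.05%.

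For levels at equal depth, 5000 UMIs were drawn at random from each cell, and cells with fewer were left out (none of the Sphk1-high cells and 694 of the 5086 others, 486 of them without Sphk1). UMIs were then summed over the cells of a group and given as CPM. At this depth Sphk1 had 374 CPM in the Sphk1-high cells, 171 in cells with 1 to 4 UMIs, 0 in cells chosen for having none and 122 in all others together. Those values describe the selection. When the UMIs of each cell were split at random into 2 parts, 1 part used to choose and the other to measure, Sphk1 had 129 CPM in cells with none in the choosing part, then 187, 215 and 259 at 1, 2 and 3 to 4, and 308 (288 to 329) at 5 or more. The cells differed in Sphk1 in UMIs that had not chosen them. They also differed in depth, with a median of 8094 UMIs per cell at none and 21155 at 5 or more.

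Mt2 was higher in the Sphk1-high cells, with most of the difference below the threshold. It had 517 CPM there, 376 in all other MEP cells and 257 in cells without Sphk1. Over the steps of 0, 1 to 2, 3 to 4, 5 to 6, 7 to 9 and 10 or more Sphk1 UMIs, Mt2 had 257, 405, 465, 526, 495 and 534 CPM. The level was higher at each of the first steps and differed little among the Sphk1-high cells. The log2 ratio of Mt2 was 0.46 over all others (0.40 to 0.52) and 1.01 over cells without Sphk1 (0.92 to 1.10), and only 0.09 over other MEP cells of like UMIs per cell. Its neighbour Mt1, the other main metallothionein gene, had 796 CPM against 698 in all others and 802 in others of like UMIs per cell. After thinning, 87.2% of Sphk1-high cells and 58.0% of cells without Sphk1 had a Mt2 UMI, against 37.1% of the MEP cells with 5 or more Pf4 UMIs, whose median before thinning was 5565 UMIs.

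Rhag had 59.6 CPM in the Sphk1-high cells, 41.5 in all others and 29.8 in cells without Sphk1. Its levels over the 6 steps were 29.8, 43.8, 51.7, 54.1, 67.8 and 61.8 CPM. The log2 ratio of Rhag was 0.52 over all others (0.34 to 0.70), 1.001 over cells without Sphk1 (0.74 to 1.27) and 0.13 over others of like UMIs per cell. Over cells without Sphk1 within the 3 deeper bins it was 1.14 (0.29 to 1.93), 0.31 (-0.25 to 0.90) and -0.54 (-1.19 to 0.18). The last bin holds 786 of the Sphk1-high cells and 47 cells without Sphk1, which had 21 Rhag UMIs after thinning, so the direction over cells without Sphk1 did not hold among the deepest cells. For Mt2 the same ratios were 0.77 (0.51 to 1.03), 0.39 (0.19 to 0.58) and 0.13 (-0.14 to 0.41). Rhd, encoding the Rh blood group protein that partners it, had a larger difference. It had 328 CPM against 202 in all others and 128 in cells without Sphk1, and its log2 ratio was 0.36 over others of like UMIs per cell. With all depths pooled, Mt2 and Rhag had larger ratios over cells without Sphk1 than over other cells of like UMIs. These 2 contrasts are not alike, since the pooled groups also differ in depth, with medians of 18742 and 6662 UMIs. In the deepest bin the log2 ratio of Rhag was -0.54 over cells without Sphk1 and 0.11 over all others. For Mt2 these were 0.13 and 0.09.

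Across all genes, a gene was counted as higher or lower at a ratio of at least 1.5 with at least 50 CPM in the group where it was higher. Against all other MEP cells, 34 of 2798 genes (1.22%) were higher, Sphk1 among them, and 52 (1.86%) were lower, Pf4 among them, together 3.07% of the genes compared. Against MEP cells without Sphk1, 125 of 2873 genes (4.35%) were higher and 146 (5.08%) lower, together 9.43%. All 34 higher genes and 51 of the 52 lower genes were also counted against cells without Sphk1. Of the 3 markers, Mt2 and Rhag did not reach the ratio of 1.5 over all others, and all 3 reached it over cells without Sphk1. Against other MEP cells weighted to the same distribution of UMIs per cell, in 21 bins, Sphk1 was the 1 higher gene of 2752 (0.0363%) and 11 genes (0.4%) were lower, together 0.436%. All 34 and all 52 kept their sign in that contrast, at smaller ratios. The 11 were Plac8, Lgals1, Ramp1, Apoe, Tmsb4x, Cd63, Sh3bgrl3, Ptprcap, Psmb8, Arpc1b and S100a10. Gene lists are described below by their measured members, those with 10 CPM or more in either group, over which the median log2 ratio is taken. Only members with 50 CPM or more in either group could be counted as higher or lower, and their number is given as those that could pass.

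**Figure D2:**
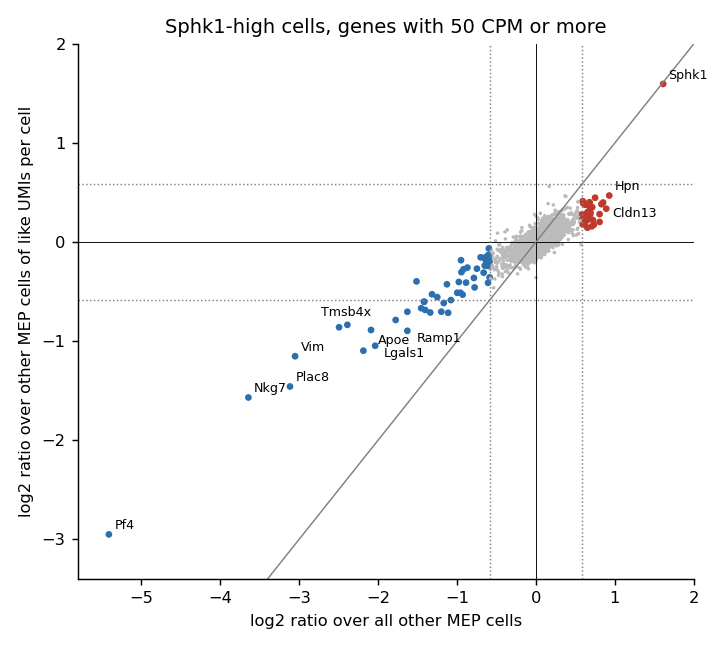
Log2 ratio of each gene with 50 CPM or more in Sphk1-high cells over all other MEP cells (horizontal) and over other MEP cells of like UMIs per cell (vertical). Red points were higher and blue points lower over all others; dotted lines mark a ratio of 1.5 and the diagonal marks equal ratios. Sphk1 lies on the diagonal at 1.61 and 1.60, while the other coloured points lie nearer to 0 on the vertical axis, such as Plac8 at -3.12 and -1.46.

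The 10 genes with the largest ratios over all other MEP cells, Sphk1 aside, were Hpn, Rgcc, Cldn13, Crip2, Ube2c, Lmna, Ctse, Ccnb1, Plk1 and Nxpe2. Hpn, encoding the membrane serine protease hepsin, had 66.4 CPM against 34.9 in all others (log2 0.93, 0.75 to 1.11) and 18.5 in cells without Sphk1. Cldn13, a claudin gene of mouse erythroid cells, had 245 CPM against 136 (log2 0.85) and 88.5 (log2 1.47, 1.33 to 1.62). Lmna, encoding the nuclear lamins A and C, had 146 CPM against 83.2 and 54.0, and Ctse, encoding the protease cathepsin E, had 236 against 140 and 95.4. Among others of like UMIs per cell the log2 ratios were 0.47 for Hpn, 0.45 for Ctse, 0.40 for Cldn13 and 0.28 for Lmna. Over the Sphk1 steps Cldn13 had 88.5, 143, 178, 237, 246 and 283 CPM. Cldn13 was thus higher at each step of the scale. Across the threshold it had 169 CPM in cells with 4 Sphk1 UMIs and 227 in those with 5 (log2 0.43, 0.23 to 0.62).

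Red cell progenitor markers were in part higher in the Sphk1-high cells. Of 24 erythroid progenitor markers, of which 23 could pass, 6 were higher than in all others and none lower, with a median log2 ratio of 0.33 against 0.03 over all genes with 10 CPM or more. Against cells without Sphk1, 12 were higher and none lower (median 0.56), and against others of like UMIs per cell none passed (median 0.16, all genes 0.01). The most abundant member did not share the difference: Car1, encoding carbonic anhydrase 1, had 4497 CPM in the Sphk1-high cells, 4568 in all others and 4454 in cells without Sphk1. Car2, encoding carbonic anhydrase 2, had 4888, 3768 and 3020 CPM (log2 0.69 over cells without Sphk1, 0.67 to 0.72). Epor, the erythropoietin receptor gene, had 106, 81.8 and 67.5 CPM, and Klf1 had 468, 396 and 365. Of 22 later erythroid markers, 14 reached 10 CPM and 7 could pass. By the rule 2 (Hba-a1 and Hbb-bt) were higher than in all others (median 0.42) and 5 than in cells without Sphk1. None passed against others of like UMIs per cell (median 0.14).

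Erythroid transcription factor genes went both ways. Of 19 measured against all others, 16 could pass, Nfe2 was lower and none was higher (median 0.07). Of 20 measured against cells without Sphk1, 17 could pass, and E2f4, Klf3 and Zfpm1 were higher and Nfe2, Myb and Gata2 lower (median -0.01). Among cells of like UMIs none of the 16 that could pass did (median 0.02). E2f4, a cell cycle factor that red cell progenitors need, had 267 CPM in the Sphk1-high cells, 182 in all others and 140 in cells without Sphk1. Nfe2, encoding a factor of globin and platelet genes, had 40.6, 64.2 and 84.9 CPM. Gata1, the master regulator of erythroid genes, had 129, 123 and 125 CPM, and Tal1, its partner at many of them, 82.0, 78.5 and 73.7.

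Heme synthesis genes encode the enzymes that build the iron-holding ring of hemoglobin and the carriers of its precursors. Of 14 measured members, of which 8 could pass, Cpox was higher than in all others, and none was lower (median 0.36). Against cells without Sphk1, 5 were higher, Cpox and Ppox among them, and none lower (median 0.62). Against others of like UMIs per cell none of the 8 that could pass did (median 0.14). Cpox, encoding coproporphyrinogen oxidase, had 296 CPM against 191 in all others and 139 in cells without Sphk1. Ppox, encoding protoporphyrinogen oxidase, had 52.1, 36.3 and 25.4 CPM; over cells without Sphk1 in the deepest bin its log2 ratio was -0.15 (-0.96 to 0.79). Other enzyme genes of the pathway differed less: Alad had 322, 286 and 259 CPM and Fech, which inserts the iron, 57.9, 46.0 and 40.2. Alas1, which encodes the first enzyme in cells of all types, had 12.4, 12.5 and 12.6 CPM.

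Iron genes had no member past the rule against all others (0 of the 9 that could pass, of 15 measured, median 0.20). Over all genes compared 3.07% passed, so a count of 0 among 9 says little. Against cells without Sphk1, Tfrc and Fth1 were higher. Against others of like UMIs per cell no iron gene passed (median 0.12). Tfrc, the transferrin receptor gene, had 113 CPM against 79.0 in all others and 54.5 in cells without Sphk1. Over cells without Sphk1 in the deepest bin its log2 ratio was -0.33 (-0.84 to 0.23). Fth1, encoding the ferritin heavy chain, had 4130, 3199 and 2618 CPM. Of 21 measured red cell membrane and blood group genes, 13 could pass, 3 were higher than in all others (Rhd, Add2 and Cldn13, which the progenitor list also holds) and none lower (median 0.28), and 6 were higher than in cells without Sphk1. Against others of like UMIs per cell no membrane or blood group gene passed (median 0.18). Add2, encoding the skeleton protein beta-adducin, had 104 CPM against 64.7 in all others. Outside the list, Smim1, the Vel blood group gene, was also higher, at 157 against 103 CPM. Icam4, another blood group gene, had 52.1 CPM against 60.3 in all others.

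Globin transcripts were few in number and unevenly spread. The adult genes Hba-a1, Hba-a2, Hbb-bs and Hbb-bt had 129, 31.2, 76.8 and 71.6 CPM in the Sphk1-high cells, 85.7, 20.2, 51.6 and 46.2 in all others, and 49.3, 13.5, 28.3 and 27.3 in cells without Sphk1. Hba-a1 and Hbb-bt were higher by the rule than in all others, and the log2 ratios of the 4 genes over cells without Sphk1 were 1.39, 1.21, 1.44 and 1.39. Hba-a1 and Hba-a2 are near-identical copies, as are Hbb-bs and Hbb-bt, so their split is uncertain. Of the Sphk1-high cells, 666 (55.6%) had no globin UMI among 5000, while 47 cells (3.92%) had 10 or more and held 41.3% of the group's globin UMIs. A share of 44.4% had any globin UMI, against 26.1% of cells without Sphk1 and 25.8% of the cells with 5 or more Pf4 UMIs, which should lack it. The direction did not hold in every depth bin: over the others, the log2 ratios of Hba-a1 were -0.09, 0.63 and 0.04 in the 3 deeper bins and those of Hbb-bs -0.22, 0.53 and -0.05. The summed globin level was 310 CPM in the Sphk1-high cells and 281 in others of like UMIs per cell.

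Several genes higher in the Sphk1-high cells serve cell division. Of 26 genes of the G2 and M phases, of which 21 could pass, 7 were higher than in all others and 17 higher than in cells without Sphk1, and none was lower in either contrast (medians 0.47 and 0.75). Their summed level was 4685 CPM, against 3428 in all others and 2871 in cells without Sphk1. Ube2c, encoding the ubiquitin-conjugating enzyme that serves the anaphase-promoting complex, had 419 CPM against 239 and 182. Ccnb1, encoding the mitotic cyclin B1, had 151 CPM against 90.6 and 69.8, and Plk1, a mitotic kinase gene, had 87.3 against 52.9 and 35.3. Over the Sphk1 steps Ube2c had 182, 236, 303, 375, 457 and 505 CPM, higher at each step also among the Sphk1-high cells. Depth rose over the same steps, from a median of 6662 to 22608 UMIs per cell. Within the 3 deeper bins the log2 ratio of Ube2c over cells without Sphk1 was 0.35 (-0.0007 to 0.68), 0.07 (-0.16 to 0.31) and 0.06 (-0.21 to 0.35). All 3 intervals include 0. Among others of like UMIs per cell the G2 and M sum was 4227 CPM, and no gene of the list passed the rule (median 0.16).

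S phase genes, which serve DNA replication, differed less. Of 26, of which 22 could pass, Ccne1 was higher and Ung lower than in all others, the median was 0.00, and the summed level was 2834 CPM against 2754. Pcna, encoding the clamp of DNA polymerase, had 194 CPM against 192 in all others and 187 in cells without Sphk1. Ccne1, the cyclin E1 gene of S phase entry, had 126 CPM against 84.3 and 56.0. Per cell, the median number of G2 and M UMIs among 5000 was 23 in the Sphk1-high cells, 17 in cells with 1 to 4 Sphk1 UMIs and 11 in cells with none, while the median of S phase UMIs was 14, 14 and 13. After thinning, a Mki67 UMI, a mark of cycling cells, was found in 65.2% of the Sphk1-high cells (62.4 to 67.9) and 42.3% of cells without Sphk1 (39.5 to 45.2). Without thinning these shares were 95.6% and 46.9%. A Ccnb1 UMI was found in 49.7% and 24.5% after thinning, and a Pcna UMI in 59.0% and 56.2%. Ccnd2, encoding the cyclin D2 of early G1, was lower, at 117 CPM against 179 in all others and 221 in cells without Sphk1. Among cells of like UMIs its log2 ratio was -0.14.

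**Figure D3:**
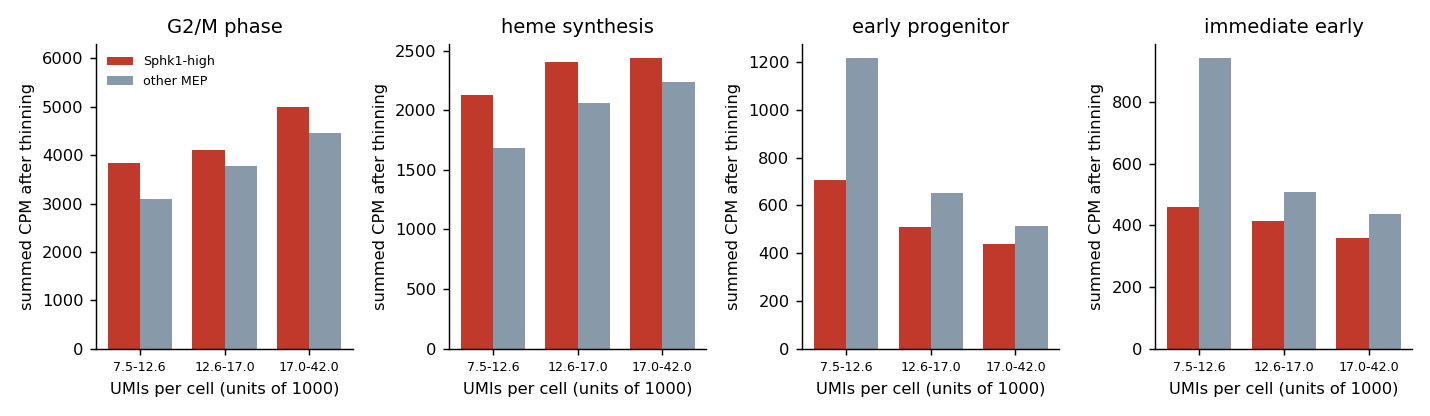
Summed CPM after thinning (vertical axis) of the G2/M, heme synthesis, early progenitor and immediate early lists in Sphk1-high cells (red) and other MEP cells (grey), in the 3 deeper of 4 equal bins of MEP cells by UMIs per cell (units of 1000) (horizontal axis). The shallowest bin is left out because it held 4 Sphk1-high cells. In the deepest bin the G2/M sum was 5001 CPM in Sphk1-high cells and 4455 in the others, and the early progenitor sum was 437 and 514.

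The depth bins narrow the difference in UMI totals without removing it. Within the 3 deeper bins the Sphk1-high cells had medians of 11308, 15264 and 20814 UMIs and the others 10024, 14792 and 19015. In the 3 deeper bins, which held 73, 335 and 786 Sphk1-high cells, the G2 and M sum was 3838, 4117 and 5001 CPM in the Sphk1-high cells and 3086, 3782 and 4455 in the others. The level thus went up with UMIs per cell in both groups, and was above the others within each bin, where the Sphk1-high cells were also the deeper ones. The heme sum was 2132, 2407 and 2434 CPM against 1684, 2057 and 2238. The number of genes higher than in the others was 162, 5 and 1 in the 3 bins, and the number lower 128, 14 and 7. The highest counts come from the bin with 73 Sphk1-high cells, where a gene's level rests on few UMIs.

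The genes lower in the Sphk1-high cells had larger differences than the higher ones. The 10 with the smallest ratios over all others, Pf4 aside, were Nkg7, Plac8, Vim, Tmsb4x, Fos, Clec4d, Apoe, Lgals1, Ptpn18 and Ramp1. Plac8, a gene of immature myeloid and multipotent progenitors, had 41.2 CPM against 358 in all others (log2 -3.12, -3.31 to -2.94) and 687 in cells without Sphk1 (log2 -4.06, -4.25 to -3.87). Over the Sphk1 steps Plac8 had 687, 315, 126, 50.1, 35.4 and 18.4 CPM, lower at each step. Apoe, encoding apolipoprotein E, had 116 CPM against 494 and 855, and Vim, encoding the intermediate filament vimentin, 6.34 against 52.6 and 121. Tmsb4x, encoding the actin-binding thymosin beta-4, had 78.1 CPM against 440 in all others and 142 in others of like UMIs per cell; in the cells with 1 to 4 Sphk1 UMIs it had 129. The group of all others includes the cells with 5 or more Pf4 UMIs, in which Tmsb4x had 11178 CPM.

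Among cells of like UMIs per cell the lower genes kept the clearest differences. Plac8 had 41.2 CPM against 113 there (log2 -1.46), Lgals1, encoding galectin-1, 31.0 against 64.2 (log2 -1.05) and Ramp1, encoding an activity-modifying protein of peptide hormone receptors, 65.6 against 122 (log2 -0.90). Apoe had 116 against 215 CPM (log2 -0.89). In the deepest bin Plac8 was still at 28.5 CPM in Sphk1-high cells and 79.5 in the others, and Ramp1 at 56.7 and 104. Genes differed in how they stood on either side of the threshold. Plac8 had 103 CPM at 4 Sphk1 UMIs and 54.2 at 5 (log2 -0.92, -1.26 to -0.59), Apoe 196 and 142 (log2 -0.47, -0.69 to -0.26) and Ramp1 118 and 79.3. Lgals1 had 40.8 and 45.0 CPM (log2 0.14, -0.28 to 0.57), Fos 30.6 and 32.2 and Jun 93.3 and 94.1, with intervals that include 0.

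**Figure D4:**
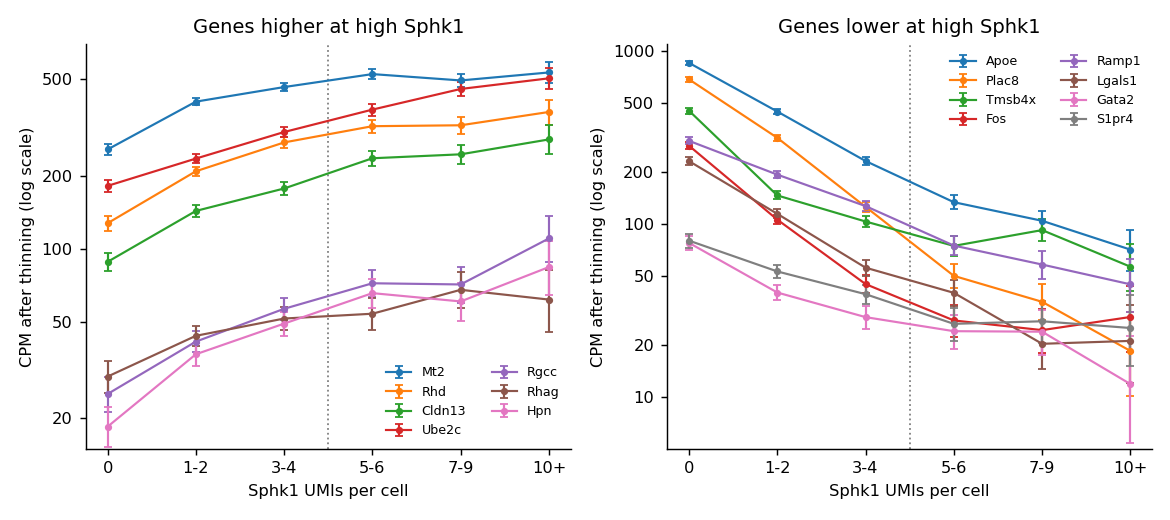
CPM after thinning to 5000 UMIs per cell (vertical log axis) over 6 steps of Sphk1 UMIs per cell (horizontal axis), for 7 genes that were higher (left) and 8 that were lower (right) at high Sphk1. Bars are exact Poisson 95% intervals of the counts, and the dotted line is the threshold of 5 Sphk1 UMIs. Mt2 levels off from 526 CPM at 5 to 6 Sphk1 UMIs to 534 at 10 or more, Ube2c reaches 505, and Plac8 goes from 687 to 18.4.

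Of 11 measured early progenitor genes, of which 4 could pass, Apoe was lower by the rule than in all others. Of 13 measured against cells without Sphk1, 8 could pass, 5 were lower (Apoe, Gata2, Myb, Cd48 and Muc13) and 1, Zfpm1, a GATA cofactor gene that erythroid cells keep, was higher. The medians were -1.12 and -1.80. Against others of like UMIs per cell the median was -0.28 over 9 measured, and of the 3 that could pass only Apoe was lower. Gata2, the GATA factor of stem and early progenitor cells, had 22.4 CPM against 49.8 in all others and 77.7 in cells without Sphk1. Kit, the stem cell factor receptor gene of the gate, had 41.9, 51.7 and 56.5 CPM, and Myb, a regulator of progenitor proliferation, 129, 171 and 217. Immediate early genes, which growth factors induce rapidly, were lower too: 4 of the 5 that could pass (10 measured) than in all others and 7 of 7 (11 measured) than in cells without Sphk1 (medians -2.36 and -3.27). Fos had 26.7 CPM against 140 and 284, Jun 86.1 against 246 and 423, and Egr1 3.01 against 23.0 and 44.6. Among others of like UMIs per cell neither of the 2 immediate early genes that could pass did (median -0.40 over 7 measured), with Fos at 47.7 CPM.

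No sphingolipid gene other than Sphk1 was higher. Of 21 measured members, 8 could pass, and Sphk1 was the 1 higher gene against all others and against cells without Sphk1, and the medians were -0.17 and -0.13. Sptssa was lower than in cells without Sphk1. Sphk2, the second sphingosine kinase gene, had 11.4 CPM against 13.7 in all others and 14.5 in cells without Sphk1. Sgpl1, encoding the lyase that breaks sphingosine-1-phosphate down, had 5.51 CPM against 4.01 in all others (log2 0.46, -0.16 to 1.05), and Sgpp1, a phosphatase gene of the same lipid, 26.7 against 25.7. Mfsd2b, the exporter of sphingosine-1-phosphate from red cells, had 61.9 CPM against 68.8 in all others (log2 -0.15, -0.32 to 0.01) and 80.4 in cells without Sphk1. Spns2, the exporter of endothelial cells, had 2.84 CPM against 11.2 and 18.7. Cers2, the most abundant ceramide synthase gene here, had 141 CPM against 142, and Sptssa, encoding a small subunit of serine palmitoyltransferase, 150.2 against 213 and 244.

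Of the 5 sphingosine-1-phosphate receptor genes, S1pr4 alone reached 10 CPM, and it was lower. S1pr4, known from leukocytes, had 26.5 CPM in the Sphk1-high cells, 56.0 in all others (log2 -1.08, -1.33 to -0.84) and 80.1 in cells without Sphk1, and 39.8 in others of like UMIs per cell (log2 -0.59). Its levels over the Sphk1 steps were 80.1, 53.1, 39.2, 26.4, 27.3 and 25 CPM. S1pr1 had 3 thinned UMIs in the Sphk1-high cells and S1pr2 had 4, which are too few to compare. The metallothionein and zinc genes had a median of 0.08 against all others over 10 measured, of which only 2 could pass, and neither did. Mtf1, encoding the zinc-sensing factor that drives metallothionein genes, had 29.9 CPM against 31.3 in all others and 25.2 in cells without Sphk1.

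Ribosome biogenesis and chaperone genes differed little from all others, with medians of 0.07 and 0.08. Of their members that could pass, 0 of 18 and 0 of 14 did. Over all genes compared 3.07% passed, so counts of 0 in lists of this size say little. Cytosolic ribosomal protein genes summed to 296753 CPM against 310187. Cholesterol synthesis genes had a median of -0.07 over 11 measured and erythropoietin signalling genes of -0.32 over 8, Epor being the highest; only 2 of each list could pass, and none did. Interferon response genes were at lower levels: 3 of the 4 that could pass were lower than in cells without Sphk1, none of 3 than in all others, and the medians were -0.71 over 8 and -0.45 over 7 measured. Against others of like UMIs per cell their median was -0.07 over 6 measured, and none of the 3 that could pass did. In glycolysis the pyruvate kinase genes went opposite ways below the 50 CPM minimum: Pklr, the red cell and liver form, had 47.2 CPM against 34.8 in all others and 25.1 in cells without Sphk1, and Pkm, the form of most other tissues, 1.17 against 15.4 and 24.9.

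**Figure D5:**
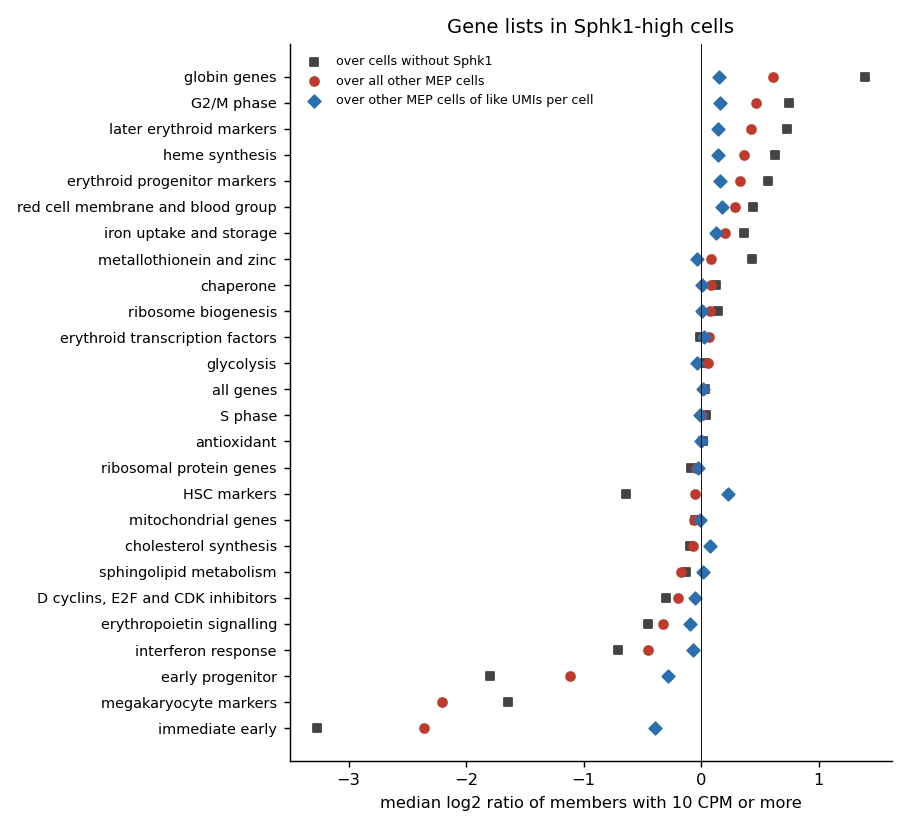
Median log2 ratio (horizontal axis) of the members with 10 CPM or more of each gene list in Sphk1-high cells over cells without Sphk1 (squares), all other MEP cells (circles) and other MEP cells of like UMIs per cell (diamonds). The globin and G2/M lists lie highest for squares and circles, while the HSC (stem cell) marker list has the highest diamond, at 0.22 over 3 measured members. The immediate early list lies lowest, at -3.27, -2.36 and -0.40. The diamonds lie nearest to 0 for the globin, G2/M and immediate early lists.

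Markers of other cell types were at low levels, and their part in the results was not tested. No UMI remained after thinning for 7 of 20 megakaryocyte, 8 of 18 granulocyte-monocyte, 9 of 13 lymphoid, 6 of 11 basophil and mast cell and 9 of 13 macrophage markers. The 20 megakaryocyte genes, Pf4 among them, summed to 60.9 CPM in the Sphk1-high cells and 126 in cells without Sphk1. In the cells with 5 or more Pf4 UMIs they summed to 9319 CPM. Pf4, whose UMIs chose these groups, made 6800 of the 9319, 3.34 of the 60.9 and 8.07 of the 126 CPM. Gp5 made 38.2 of the 60.9 CPM. The 18 granulocyte-monocyte genes summed to 16.5 CPM against 53.1 in all others, the 13 lymphoid genes to 6.68 against 74.0, of which Nkg7 made 5.51 and 68.9, and the 11 basophil and mast cell genes to 2.34 against 9.20. The 13 macrophage genes summed to 42.1 CPM against 32.4, of which 39.1 and 28.1 were Slc40a1, the iron exporter gene ferroportin that erythroid cells also express. Doublets, in which 1 barcode holds 2 cells, were kept. MEP cells were scored against simulated pairs, and the 316 with the highest scores were marked, a number set in advance. They were 5.03% of the MEP cells, and 109 of them were Sphk1-high, 9.10% of the group. Of the 315 MEP cells with the most UMIs, 225 were Sphk1-high, while the group made up 19.1% of all MEP cells. Without the marked cells 41 genes were higher and 54 lower than in all others.

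Some genes also passed the rule among the Sphk1-high cells, between those with more and with fewer Sphk1 UMIs. Depth differed as well, with medians of 17410, 19914 and 22608 UMIs per cell at 5 to 6, 7 to 9 and 10 or more. The values in this paragraph are not matched for UMIs per cell. Between the 152 cells with 10 or more Sphk1 UMIs and the 1046 with 5 to 9, 24 of 2867 genes (0.837%) were higher in the former and 25 (0.872%) lower. The 5 with the largest ratios were Tsr3, Fzr1, Otulin, Ppfia1 and Mdm4, such as Fzr1, encoding an activator of the anaphase-promoting complex, at 80.3 and 45.7 CPM (log2 0.81, 0.38 to 1.22). The 5 with the smallest were Ncbp2, S100a10, Cep83, Apoe and Ptprcap, among which Apoe had 71.1 and 123 CPM (log2 -0.79, -1.22 to -0.38). Not all of these genes changed steadily over the 6 Sphk1 steps. Tsr3 had 41.7, 44.4, 40.4, 43.0, 41.5 and 75 CPM, while Apoe had 855, 447, 231, 134, 104 and 71.1, lower at each step. Ccnb1 had 218 CPM against 141 (log2 0.63, 0.38 to 0.88), and the G2 and M sum was 5276 against 4599 CPM. Mt2 had 534 and 514 CPM (log2 0.05, -0.10 to 0.21) and Rhag 61.8 and 59.3 CPM (log2 0.06, -0.41 to 0.51), with intervals that include 0. The globin sum was 342 and 305 CPM. The 152 cells gave 760000 thinned UMIs, which limits the smaller values.

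Per cell, the numbers of list UMIs overlapped widely with those of other MEP cells. Among 5000 UMIs, erythroid progenitor markers took 62.7 to 103 UMIs in the middle 80% of Sphk1-high cells, with a median of 81, against a median of 59 in cells without Sphk1 (40 to 82). Heme synthesis genes took a median of 11 UMIs against 7, and early progenitor genes 2 against 7, with 83.3% and 95.3% of cells having any. The Sphk1-high cells and the cells without Sphk1 overlapped in each of these lists.

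Sphk1 UMIs came almost wholly from the MEP library. It had 15549 UMIs there, 27 in the LSK library (13 cells, 2 of which met the rule), 4 in CMP and 0 in GMP. The CMP gate was deposited in duplicate with identical values, counted here as 1 library. Kept cells of the LSK, CMP and GMP libraries shared 87, 36 and 57 barcode sequences with MEP cells, of which 14, 5 and 12 were those of Sphk1-high cells.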

How the data were processed

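Libraries of sorted mouse bone marrow cells were counted as UMIs per gene and cell, and the deposited values are raw counts, whole numbers per gene and barcode. The submitters' processing notes list the build mm10 with Seurat 2.3.0, Cell Ranger 2.0.0 and CASAVA 1.8.2, without their settings. Of 6370 MEP barcodes, 86 did not pass the filters of 500 genes and 10% mitochondrial UMIs. The LSK matrix lists 737280 barcodes, of which the 10882 with the most UMIs were taken, the number of cells that the study states; median UMIs per cell ranged from 5991.5 in LSK to 12578 in MEP.

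Cells were thinned to 5000 UMIs without replacement, UMIs were summed by group and divided into CPM. Ratios have exact conditional binomial intervals, levels exact Poisson and shares exact binomial intervals, at 95%; PCR duplicates are removed by UMIs, and cells of 1 library are not replicates. Counts under 3 were set to 3 in a ratio. The steps were tested on simulated data. Named genes were the markers, the 10 genes with the largest ratio in each direction, members of 29 lists by level and ratio, all detected sphingolipid, receptor, globin and heme genes, and 5 genes in each direction among the Sphk1-high cells; Smim1 and genes listed only to complete a count were named after their values were seen. Some members of the lists are counted but not reported by name here. Members, lists and rules were chosen with earlier results of these data known. Gene IDs matched GENCODE M21 for 27645 of 27998. Python 3.11.15, numpy 2.4.6 and scipy 1.17.1 were used. The contrast with cells of like UMIs per cell was added after the data were seen: other MEP cells were weighted to the Sphk1-high distribution in 21 bins, mostly 1000 UMIs wide. Alternatives changed the depth of thinning, scaling, minimum, ratio, doublets, membership and depth bins.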

Additional observations from a re-analysis of the deposited data

How the results depend on the processing

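Of 7870 log2 ratios of named genes under the alternatives, 604 had the opposite sign: 16 of the 1998 of genes past the rule, given below, and 588 of the 5872 of genes not past it. The counts depended on the settings. The 34 higher and 52 lower genes against all others became 52 and 98 when thinned to 3000 UMIs, 15 and 34 at 8000, 95 and 298 with a minimum of 10 CPM, 408 and 1508 with no minimum beyond 3 counts, and 1 and 25 at a ratio of 2. Without thinning 17 were higher. With 10 or more Sphk1 UMIs as the rule they were 76 and 85, and with 3 or more Sphk1 UMIs of 5000, which took 440 cells with a median of 16199 UMIs against 13341 in the rest, 4 and 32. With members chosen in 1 part of the UMIs and measured in the other, 20 were higher. Within the 3 deeper bins they were 162 and 128, 5 and 14, and 1 and 7, and against others of like UMIs per cell, an alternative chosen after seeing the data, 1 and 11. The 125 higher and 146 lower genes against cells without Sphk1 became 200 higher at 3000 UMIs, 91 lower at 8000, 370 and 690 at 10 CPM, 791 and 2327 with no minimum, 41 and 63 at a ratio of 2, 261 higher with 10 or more Sphk1 UMIs, 24 and 51 with 3 or more of 5000, 61 and 88 with split UMIs, 243 higher in the second bin and 66 lower in the third. Requiring no Pf4 UMI left 1122 cells. Hba-a1 reversed over all others in the second bin (-0.0934). Over cells without Sphk1, of which the deepest bin held 47, Rhag (-0.54), Tfrc (-0.33), Rrm2 (-0.28), Rrm1 (-0.21), Ppox (-0.15), Cenpa (-0.12), Crip2 (-0.0902), Ccne1 (-0.0223), Ccnd2 (0.21) and Myb (0.21) reversed there, and Glrx (0.41), Nfe2 (0.29), Junb (0.24), Ifitm3 (0.0395) and Rrm2 (-0.0091) in the third bin. The cause was not tested. Another random draw, also added later, gave 30, 54, 136 and 141 genes. In the shallowest bin, 4 Sphk1-high cells gave 2999 higher and 115 lower of 4534 genes, where 1 UMI of the group is 50 CPM. A like-depth contrast with cells without Sphk1 in bins of 1000 UMIs was not run. No paired analysis was possible because there is 1 MEP library.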
